A study of Mus musculus with 72 samples.

Results

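The comparison described here is the liver transcriptome of mice fed a methionine- and choline-deficient (MCD) diet against that of mice fed its isocaloric control, at circadian time 4 (CT04), that is, 4 h into the subjective day. Its members are the 6 libraries labelled as liver at that time, 3 per diet, of 36 liver libraries and of 72 libraries in the series. The animals were C57BL/6 mice, 8 to 12 weeks old when purchased, caged singly with free access to food. They were on the diet for 11 days, of which 10 were spent in a light-dark cycle and the last in constant darkness, and were killed on that last day at intervals of 4 h from CT00 to CT20. In each group libraries 1 and 2 are labelled male and library 3 female, although the protocol text names male mice only. No gene was altered in either group, so the groups differ by diet alone as far as the labels say. Nothing in the labels ties a control animal to an MCD animal. Each library came from a piece of the left lobe, sequenced as stranded polyadenylated RNA.

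Choline and methionine feed the methylation and Kennedy routes to phosphatidylcholine, the phospholipid that coats the lipoprotein particles in which liver exports triglyceride. A diet without them is a standard means of producing fatty liver with inflammation in rodents, usually with loss of body weight. The liver also runs a circadian clock in which the BMAL1-CLOCK dimer drives, through E-box sequences, its own repressors PER and CRY and many metabolic genes. The levels of such genes at a given hour therefore depend on where the oscillation stands as well as on its amplitude.

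Total counts were 61677288 to 68736158 in the 3 control libraries and 67845953 to 86740552 in the 3 MCD libraries, within the 52600280 to 86740552 of all liver libraries. Levels below are read counts scaled to 1000000 (CPM) on library sizes scaled by TMM, a trimmed mean of gene ratios between libraries. The scaling factor of MCD library 1, 1.28, was the highest of the 36. Levels of mt-Nd6, the protein gene on the light strand of mitochondrial DNA, split the liver libraries into 15 at 414 to 925 CPM and 21 at 41.6 to 119 CPM (on library totals), and at CT04 control libraries 1 and 2 and MCD library 1 were in the higher set. Against the profile of 19 clock genes at each time, 31 of the 36 libraries matched their labelled time best. Of the libraries at the other times, 2 male control columns at CT08 carry the same name and cannot be tied to single samples. The first of these stood apart, with a scaling factor of 1.18 against 0.84 to 0.99 in the other 17 control libraries and mt-Nd6 at 76.5 CPM, and the list medians and spreads at CT08 below that turn on it are given with and without it. CT08 values of single genes include it. At CT04, MCD library 2 did not match its time best: its correlation across these genes was 0.862 with CT08 and 0.697 with CT04. The profiles average both diets. Control libraries 1 and 2, which matched CT04 best, correlated with it at 0.707 and 0.678. Male-biased Cyp4a12a stood at 145, 135 and 0.384 CPM in control libraries 1, 2 and 3, so that the library labelled female had the lowest level. Of 164 genes selected by rules of size or list membership, 54 overlap an annotated gene on the other strand, among them Apoa4, Pnpla3, Slc7a11, Selenop, Plin4, Mat2a, Igf1, Alas1, Asap2, Wee1, Mcu, Cars, Arntl and Ciart. The strand setting of the counting is not given in the sources used here. Counts of such a gene may therefore include reads of its partner.

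Of 20249 genes tested, 3679 (18.2%) were called between the diets at CT04 by edgeR's quasi-likelihood test at a Benjamini-Hochberg adjusted p under 0.05. MCD livers had 1915 genes called higher (9.46% of those tested) and 1764 called lower (8.71%), and 939 of the former and 529 of the latter differed by at least 1 on the log2 scale. Counts of called members in the lists below are to be read beside these shares of 9.46% and 8.71%. In 3398 of the called genes the 3 MCD libraries lay wholly above or below the 3 controls, a separation that 33.9% of all genes tested showed. On library totals alone, a scaling under which the median gene differed by 0.31 log2 in place of 0.0028, the split was 4742 higher and 746 lower, so the balance of directions depends on the scaling and gene differences below are relative to the median gene. The count fell to 1994 without MCD library 1, to 2107 without control library 1 and to 2056 without control library 2. It was 3407 without MCD library 2 and 3543 with the mt-Nd6 set as a term in the model. The labels describe separately caged animals but not their litters. The p-values rest on a spread shared by all 36 liver libraries in 12 groups, not on the 6 CT04 libraries alone. With only those 6 libraries in the fit the count was 1272.

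The genes with the largest rises on MCD included a stress hormone, a growth-arrest gene, a macrophage receptor and a sulfotransferase. Fgf21, the fasting and stress hormone of the liver (ENSMUSG00000030827.6), stood at 0.87, 1.03 and 1.24 CPM in the 3 control libraries and at 45.8, 14.1 and 43.0 CPM in the 3 MCD libraries (log2 difference 5.03 ± 1.02 (SE), adjusted p = 0.00166). Gadd45b, a stress-inducible growth-arrest gene, went from 0.344, 0.187 and 0.546 CPM to 10.7, 9.87 and 16.7 CPM (log2 difference 5.16 ± 0.69 (SE), adjusted p = 2.81e-05). In both genes every MCD library lay far above every control library. Genes with the largest rises and falls were named only if the diets did not overlap, so separation itself follows from that rule. Sprr1a, a small proline-rich protein of cornified epithelia, had 0 counts in all 3 control libraries and 12.7, 11.5 and 5.31 CPM on MCD. With a floor of 3 counts over the control group, that is at least 602-fold higher. Clec4e, a lectin receptor of macrophages, was likewise at 0 in the controls and at 5.20, 1.19 and 0.896 CPM on MCD, at least 147-fold higher, with library 1 the highest. Sult1e1, the oestrogen sulfotransferase, was at 0.0725, 0 and 0 CPM against 12.4, 6.02 and 8.99 CPM (log2 difference 9.28 ± 2.24 (SE), adjusted p = 0.00564).

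Other genes of this group showed a wide spread among the MCD animals. Ly6d, a membrane-anchored lymphocyte antigen, had 0.344, 0.322 and 2.05 CPM in the controls and 67.1, 14.3 and 40.1 CPM on MCD (log2 difference 5.87 ± 1.28 (SE), adjusted p = 0.0028). Mmp13, a collagenase, had 0.163, 0.136 and 0.192 CPM against 18.1, 3.82 and 3.98 CPM (log2 difference 5.57 ± 1.29 (SE), adjusted p = 0.00407), with MCD library 1 far above the other MCD libraries. Vmn2r3, a member of the vomeronasal receptor family, had 0.145, 0 and 0 CPM against 27.9, 4.42 and 1.20 CPM (log2 difference 7.83 ± 2.07 (SE), adjusted p = 0.0151), and its call was lost without control library 1, control library 2 or MCD library 1. 2 of the 12 genes with the largest rises carry only a predicted name.

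The genes with the largest falls included an acetylcholine receptor subunit, solute carriers, lipid-droplet hydrolases and male-type secreted proteins. Chrna4, a nicotinic acetylcholine receptor subunit, fell from 37.2, 69.6 and 83.6 CPM in the controls to 0.714, 1.32 and 0.684 CPM on MCD (log2 difference -6.04 ± 0.90 (SE), adjusted p = 0.000103). Serpina4-ps1, a serpin pseudogene, fell from 122, 121 and 6.63 CPM to 0.38, 2.98 and 0.142 CPM (log2 difference -6.03 ± 1.15 (SE), adjusted p = 0.000951), and its female control library was far below the male ones. Slc2a4, the insulin-responsive glucose transporter, fell from 0.852, 3.12 and 3.25 CPM to 0.276, 0 and 0.177 CPM (log2 difference -3.96 ± 0.93 (SE), adjusted p = 0.00438). Slc15a5, a peptide transporter relative, and Trhde, the enzyme that degrades thyrotropin-releasing hormone, were also called lower, with log2 differences of -4.43 ± 1.33 and -4.23 ± 1.27. Slc15a5 lost its call without control library 3, MCD library 1 or MCD library 3, and Trhde without control library 1, control library 2, MCD library 1 or MCD library 3.

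Major urinary proteins (Mup), male-biased pheromone carriers secreted by hepatocytes under growth hormone, made up 5 of the 12 genes with the largest falls. Mup3 was at 9592, 9812 and 2615 CPM in the controls and 116, 1072 and 193 CPM on MCD (log2 difference -3.93 ± 0.73 (SE), adjusted p = 0.000717). Mup19 was at 7620.2, 4277 and 879 CPM and 38.1, 277 and 38.4 CPM (log2 difference -4.93 ± 1.14 (SE), adjusted p = 0.0042). In both, MCD library 2 was the highest of its group and the female control library the lowest of its own. Mup16 and Mup17 had log2 differences of -4.83 ± 1.43 and -4.43 ± 1.13. Mup5 had 817, 466 and 82.2 CPM in the controls and 0, 30.3 and 0 CPM on MCD, and the pseudogene Mup-ps18 633, 465 and 131 CPM and 0.023, 0.286 and 0 CPM, both called lower (adjusted p = 0.0248 and 0.0028). Without MCD library 1 or MCD library 3, Mup16 and Mup5 lost their calls, the latter also without control library 3. Mup genes are near-identical copies, and the counts of single members are uncertain because reads can be split between them.

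In terms of absolute level, the 6 largest rises in mean CPM among called genes without overlap of libraries were taken. They included transcripts of apolipoprotein A-IV, haem and iron handling proteins and a fatty acid hydroxylase. Apoa4 was at 219, 230.5 and 611 CPM in the controls and 3232, 1834 and 2992 CPM on MCD (log2 difference 3.04 ± 0.58 (SE), adjusted p = 0.00096). Cyp4a14, the peroxisome-proliferator-induced fatty acid hydroxylase, was at 56.3, 32.7 and 269 CPM and 518, 1648 and 2704 CPM (log2 difference 4.13 ± 0.98 (SE), adjusted p = 0.00488). Hpx, which binds free haem, was at 2129, 2281 and 2351 CPM and 5402, 3774 and 3561 CPM (log2 difference 0.89 ± 0.22 (SE), adjusted p = 0.00551). Ftl1, ferritin light chain, was at 1327, 1342 and 1687 CPM and 2512, 2679 and 2697 CPM (log2 difference 0.86 ± 0.14 (SE), adjusted p = 0.000267). Hp, which binds free haemoglobin, rose by 0.96 ± 0.17 and Selenop, the selenium transport protein, by 0.39 ± 0.13 on the log2 scale. Selenop lost its call without control library 1, control library 2, control library 3, MCD library 2 or MCD library 3.

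The abundant transcripts that fell included those of serpins of the protease-inhibitor families. Serpina1e was at 11365, 11939 and 1017 CPM in the controls and 418, 692 and 505 CPM on MCD (log2 difference -3.21 ± 0.66 (SE), adjusted p = 0.00175). Its male control libraries were far above the female one, which was itself above all MCD libraries. Serpina3k was at 10559, 10995 and 3822 CPM and 909, 3494 and 1036 CPM (log2 difference -2.17 ± 0.42 (SE), adjusted p = 0.00105), and the lowest control and highest MCD library were close. Both belong to clusters of similar genes, so their counts carry the same uncertainty as those of the Mup genes. mt-Co1, of the mitochondrial respiratory chain, had 23505, 23584 and 18786 CPM against 15985, 16394 and 15615 CPM and lay at the threshold itself (log2 difference -0.45 ± 0.16), and its call was lost without control library 1, control library 2, MCD library 1, MCD library 2 or MCD library 3.

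**Figure D1:**
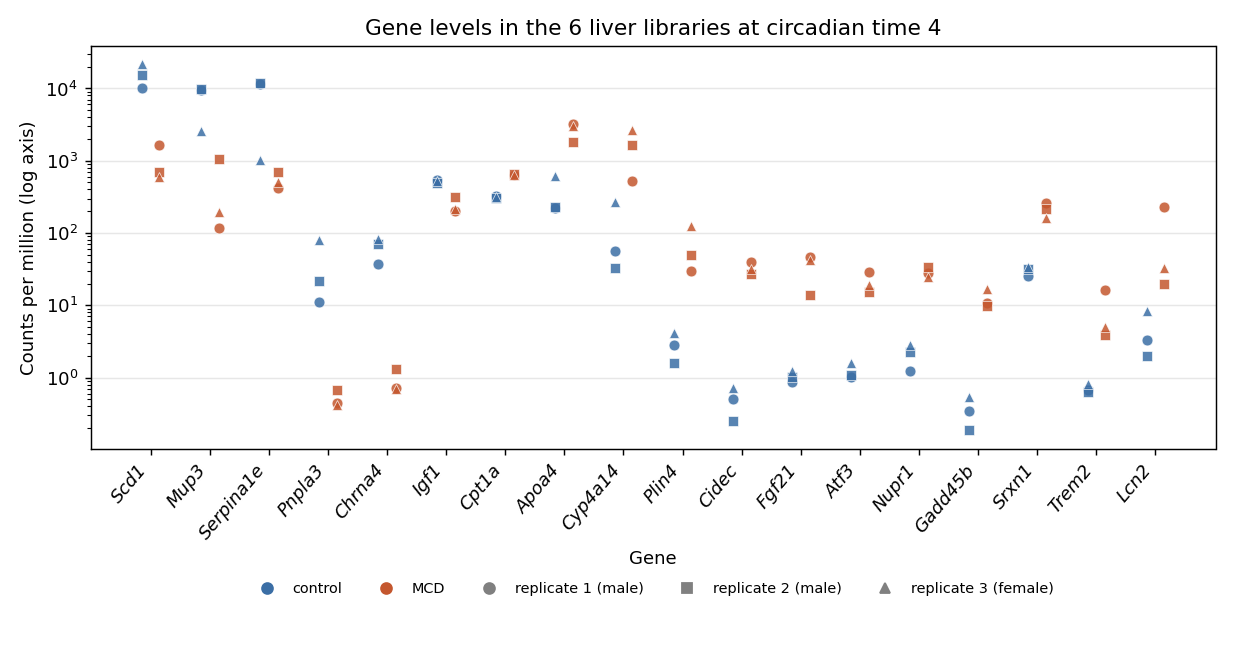
Levels in CPM on a log axis of 18 genes in the 6 liver libraries at CT04, each point a library, coloured by diet and shaped by replicate number. MCD and control points do not overlap in any of the genes shown, and MCD library 1 stands highest for Trem2 and Lcn2.

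Fatty acid and triglyceride synthesis genes were lower on MCD. Of 22 tested members 15 were called lower and 1 higher, with a median log2 difference of -1.47 against 0.0028 over all genes tested. The lower count was 9 without MCD library 1, and the higher count 0 without MCD library 1, 0 without MCD library 2, 0 without control library 1 and 0 without control library 2. Scd1, the desaturase that makes oleate (ENSMUSG00000037071.4), was at 10089.9, 15364 and 21632 CPM in the controls and 1637, 701 and 591 CPM on MCD (log2 difference -3.92 ± 0.65 (SE), adjusted p = 0.000267), the largest fall in mean CPM of any called gene. Pnpla3, a lipid-droplet hydrolase whose level follows lipogenic signals, fell from 10.9, 21.4 and 79.7 CPM to 0.449, 0.681 and 0.413 CPM (log2 difference -5.60 ± 0.88 (SE), adjusted p = 0.000179). Pnpla5, its relative, had 3.93, 6.60 and 6.11 CPM in the controls and 0 counts in all 3 MCD libraries, at least 491-fold lower with a floor of 3 counts over the group. Acaca, acetyl-CoA carboxylase, fell from 340.3, 454 and 628 CPM to 136, 155 and 135 CPM (log2 difference -1.69 ± 0.31 (SE), adjusted p = 0.000553). The diet differences of Scd1 at CT00, CT08, CT12, CT16 and CT20 were -4.73, -3.52, -3.88, -5.10 and -4.18 on the log2 scale. The list's median at those times was -0.57 to -2.06. Its CT08 value, -0.57, was -0.73 without the control CT08 library that stands apart.

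Targets of PPAR alpha, the fatty acid sensor that turns on oxidation in fasting, had higher members. 12 of 24 tested were called higher and none lower by edgeR (1 at an unadjusted p under 0.05 and 0 by DESeq2), with a median log2 difference of 0.56. The count was 7 without control library 2 and 19 on library totals. Cd36, a fatty acid translocase, rose from 25.3, 30.7 and 64.8 CPM to 247, 108 and 254 CPM (log2 difference 2.47 ± 0.45 (SE), adjusted p = 0.000631). Acot2, a mitochondrial acyl-CoA thioesterase, rose from 3.08, 2.93 and 5.76 CPM to 29.4, 19.5 and 50.0 CPM (log2 difference 3.06 ± 0.69 (SE), adjusted p = 0.00364). Ucp2, a mitochondrial carrier, rose from 25.4, 24.7 and 43.1 CPM to 78.4, 52.0 and 83.4 CPM (log2 difference 1.24 ± 0.21 (SE), adjusted p = 0.000304). Cpt1a, the carnitine transferase that admits long-chain fatty acids to mitochondria, was tightly grouped at 323, 301 and 316 CPM in the controls and 633, 652 and 641 CPM on MCD (log2 difference 1.03 ± 0.21 (SE), adjusted p = 0.00158). At the other times its differences were smaller or of the other sign, 0.27, 0.32, -0.28, -0.46 and 0.041 in time order, but the contrast of CT04 with their mean, 1.05 ± 0.23, missed the threshold (adjusted p = 0.0612). The list's median at the other times lay between -0.025 and 0.36. The latter is the CT08 value, which was 0.42 without the control CT08 library that stands apart.

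Transcripts of several lipid droplet surface proteins also rose. Of 16 tested genes of lipid droplets and lipoprotein export, 6 were called higher and 2 lower (0 without MCD library 1, 1 without control library 1 and 1 without control library 2 for the lower ones, and 0 on library totals). Cidec, which fuses droplets, stood at 0.508, 0.254 and 0.708 CPM in the controls and 39.2, 26.8 and 31.9 CPM on MCD (log2 difference 6.06 ± 1.11 (SE), adjusted p = 0.000698). Plin4, a droplet coat protein, stood at 2.85, 1.58 and 4.13 CPM and 29.5, 50.3 and 125 CPM (log2 difference 4.48 ± 0.65 (SE), adjusted p = 7.63e-05), and its MCD libraries spread widely. Plin5, the coat protein of oxidative tissues, stood at 31.3, 25.9 and 24.5 CPM and 60.6, 73.6 and 93.2 CPM (log2 difference 1.46 ± 0.26 (SE), adjusted p = 0.000492). Plin4 differed from the mean of the other times by 2.98 ± 0.65, which was not called (adjusted p = 0.0621).

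The amino acid and integrated stress response, in which ATF4 and its partners bind CCAAT/enhancer-ATF composite sites after phosphorylation of eIF2 alpha, was represented by 25 tested genes. 11 were called higher and 1 lower (0 without MCD library 1, 2 without control library 1 and 0 without control library 3 for the latter), with a median log2 difference of 1.44. Atf3, a stress-induced transcription factor, stood at 1.02, 1.09 and 1.58 CPM in the controls and 29.2, 15.2 and 18.8 CPM on MCD (log2 difference 4.12 ± 0.77 (SE), adjusted p = 0.000797). Nupr1, a stress-induced chromatin protein, stood at 1.21, 2.24 and 2.85 CPM and 28.0, 33.6 and 24.9 CPM (log2 difference 3.78 ± 0.70 (SE), adjusted p = 0.000717). Gdf15, a hormone of cellular stress, stood at 2.32, 1.76 and 2.60 CPM and 21.8, 11.4 and 24.7 CPM (log2 difference 3.10 ± 0.62 (SE), adjusted p = 0.00129). Eif4ebp1, a repressor of cap-dependent translation, rose from 31.5, 35.9 and 27.9 CPM to 56.3, 65.1 and 57.0 CPM (log2 difference 0.91 ± 0.18 (SE), adjusted p = 0.00105). The cystine importer Slc7a11 was near 0 in the controls, at 0.0363, 0.102 and 0 CPM, and at 8.05, 1.25 and 0.944 CPM on MCD (log2 difference 6.12 ± 1.41 (SE), adjusted p = 0.00388). The list's median was between 0.32 (CT08) and 1.40 at the other times, and the CT08 value was 0.68 without the control CT08 library that stands apart. None of its members was called by edgeR for a difference between CT04 and the mean of those times (2 at an unadjusted p under 0.05 and 1 by DESeq2).

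Promoter windows from RefSeq (GRCm38.p6, 250 bases before to 50 after the annotated start) were matched for 22 of the 25 genes and searched on both strands for the core TGATGNAA of the amino acid response element. 8 of the 22 (36.4%) held a match, against 4.51% of all 27025 genes with a window. The 250 bases upstream of the start of 3 of them are printed as examples that were called higher at CT04. Atf3, Nupr1 and Trib3, also called higher, hold the core too and are not printed. Asns, asparagine synthetase, was chosen after its values were seen and had a fitted log2 difference of 2.68 ± 0.76 (adjusted p = 0.016). The capitals mark the core on either strand. Slc7a11 holds 2 copies in opposite orientation and the others 1, and no site overlapped another motif searched. A match is a description of the letters only. The positions are Fgf21 chr7:45615491-45615740, minus strand, Slc7a11 chr3:50443614-50443863, minus strand, and Asns chr6:7693210-7693459, minus strand.
Fgf21: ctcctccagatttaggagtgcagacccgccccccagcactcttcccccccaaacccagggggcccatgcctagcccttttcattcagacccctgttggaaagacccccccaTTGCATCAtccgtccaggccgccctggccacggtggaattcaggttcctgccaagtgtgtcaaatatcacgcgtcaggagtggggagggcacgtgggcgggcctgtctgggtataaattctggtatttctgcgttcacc
Slc7a11: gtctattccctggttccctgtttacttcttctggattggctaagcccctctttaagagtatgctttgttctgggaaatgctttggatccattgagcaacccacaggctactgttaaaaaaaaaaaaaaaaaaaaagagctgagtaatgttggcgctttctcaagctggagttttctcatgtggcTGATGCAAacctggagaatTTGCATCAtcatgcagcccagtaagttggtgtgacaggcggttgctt
Asns: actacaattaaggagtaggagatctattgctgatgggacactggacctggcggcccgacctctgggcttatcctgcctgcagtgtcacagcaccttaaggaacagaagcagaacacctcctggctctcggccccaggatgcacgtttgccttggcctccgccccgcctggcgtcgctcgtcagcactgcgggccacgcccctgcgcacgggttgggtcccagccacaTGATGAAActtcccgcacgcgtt

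Genes of the methionine and methyl cycle, the pathway the diet deprives, changed in both directions. Of 20 tested, 3 were called higher and 6 lower, against 9.46% and 8.71% of all genes. The median log2 difference of -0.14 became 0.16 on library totals, where 5 were called higher and 3 lower. Mat2a, the methionine adenosyltransferase of extrahepatic and dividing cells, which is induced when S-adenosylmethionine is low, rose from 63.7, 62.2 and 61.9 CPM to 119, 176 and 167 CPM (log2 difference 1.30 ± 0.17 (SE), adjusted p = 2.7e-05). Mtrr, which reactivates methionine synthase, rose from 3.90, 3.87 and 5.31 CPM to 6.76, 7.55 and 6.45 CPM (log2 difference 0.66 ± 0.16 (SE), adjusted p = 0.00516). Aldh7a1, an aldehyde dehydrogenase of lysine and betaine aldehyde oxidation, fell from 398, 392 and 274 CPM to 175, 167 and 152 CPM (log2 difference -1.09 ± 0.11 (SE), adjusted p = 9.8e-07). Gamt, a methyltransferase of creatine synthesis and a large consumer of methyl groups, fell from 159, 169 and 234 CPM to 65.9, 103 and 82.9 CPM (log2 difference -1.15 ± 0.28 (SE), adjusted p = 0.00571). Of 13 phosphatidylcholine synthesis genes 2 were called lower, against 8.71% of all genes, but 2 were called higher and 1 lower on library totals. The choline transporter Slc44a1 fell from 49.4, 58.7 and 49.1 CPM to 33.0, 24.5 and 29.9 CPM (log2 difference -0.85 ± 0.14 (SE), adjusted p = 0.000177). Pcyt2, of the ethanolamine branch, had a log2 difference of -0.48 ± 0.16, and its call was lost without control library 1, control library 2, control library 3, MCD library 1 or MCD library 3.

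Cytosolic aminoacyl-tRNA synthetases had 2 of 20 called higher and 4 lower (2 without MCD library 1 for the lower ones), against 9.46% and 8.71% of all genes. On library totals the balance was the opposite, with 6 higher and 1 lower. Sars and Gars, the seryl and glycyl enzymes, rose by 0.64 ± 0.15 and 0.55 ± 0.13 on the log2 scale. Tars, the threonyl enzyme, fell from 219.6, 246 and 190.0 CPM to 93.9, 129.6 and 107 CPM (log2 difference -0.98 ± 0.16 (SE), adjusted p = 0.000176). Qars, the glutaminyl enzyme, had a log2 difference of -0.39 ± 0.087. Among 20 genes of the unfolded protein response of the endoplasmic reticulum 1 was called higher, the sensor Atf6 (0.56 ± 0.13). The chaperone Hsp90b1 (-0.93 ± 0.27) and the degradation factor Edem1 (-0.65 ± 0.15) were called lower, Hsp90b1 not without MCD library 1. The list's median log2 difference was -0.46, with 3 of 20 above 0, and 8 were lower and 2 higher at an unadjusted p under 0.05. On library totals 2 genes of this list were called higher and 0 lower, and with only the 6 CT04 libraries in the fit 0 higher and 6 lower.

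NRF2 targets, which handle oxidative stress through glutathione and thioredoxin, had many higher members. 10 of 15 tested genes for this response, glutathione and metallothionein were called higher and none lower by edgeR (0 at an unadjusted p under 0.05 and 0 by DESeq2), with a median log2 difference of 1.18. All 15 had a fitted difference above 0. Srxn1, sulfiredoxin, rose from 25.6, 32.1 and 33.9 CPM to 258, 213 and 163 CPM (log2 difference 2.78 ± 0.56 (SE), adjusted p = 0.00149). Gsta2, a glutathione transferase with close relatives, rose from 2.88, 3.02 and 3.39 CPM to 45.2, 23.5 and 27.7 CPM (log2 difference 3.38 ± 0.57 (SE), adjusted p = 0.000291). Gss, glutathione synthetase, rose from 51.7, 47.6 and 47.4 CPM to 103, 108 and 110.4 CPM (log2 difference 1.14 ± 0.22 (SE), adjusted p = 0.00116). Txnrd1, thioredoxin reductase, rose from 110.3, 120.0 and 92.7 CPM to 188, 169 and 165 CPM (log2 difference 0.70 ± 0.14 (SE), adjusted p = 0.00105). At the other times the list's median was 0.35 to 1.06.

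Of 16 drug-metabolism genes 5 were called higher (3 without MCD library 1, 3 without control library 1 and 3 without control library 2) and 1 lower (0 without MCD library 1, 0 without MCD library 3, 0 without control library 1, 0 without control library 2 and 0 without control library 3, and 2 by DESeq2). Over all genes 9.46% were called higher and 8.71% lower. Cyp2a5, a coumarin hydroxylase with near-identical relatives, was at 109, 105 and 578 CPM in the controls and 789, 1197 and 1430.3 CPM on MCD (log2 difference 2.49 ± 0.48 (SE), adjusted p = 0.00102). Por, the electron donor of all microsomal P450 enzymes, was at 96.1, 68.1 and 241 CPM and 337, 444 and 392 CPM (log2 difference 1.67 ± 0.35 (SE), adjusted p = 0.00204). In both genes the female control library was the highest control. Cyp3a11 and Cyp2c55 had log2 differences of 1.08 ± 0.34 and 1.77 ± 0.40, and Cyp3a11 lost its call without control library 1, control library 2, control library 3, MCD library 1 or MCD library 2.

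Bile acid genes had 6 of 16 called lower and 2 higher. The lower count was 2 without MCD library 1 and 3 without control library 2, and the higher count 0 without MCD library 1, 1 without control library 1, 1 without control library 2 and 0 without control library 3. Slc27a5, the bile acid-CoA ligase, fell from 742, 767 and 975 CPM to 198, 346 and 278 CPM (log2 difference -1.58 ± 0.28 (SE), adjusted p = 0.000368). Slc10a1, the sinusoidal bile salt importer, fell from 873, 899 and 883 CPM to 143, 427 and 310.0 CPM (log2 difference -1.59 ± 0.39 (SE), adjusted p = 0.0056). Cyp27a1, the sterol 27-hydroxylase, had a log2 difference of -0.97 ± 0.23, and its call was lost without MCD library 1. Abcb4, which exports phosphatidylcholine into bile, rose by 0.84 ± 0.23 and lost its call without control library 3 or MCD library 1.

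Of 24 genes of cholesterol synthesis and uptake, 3 were called lower and 1 higher, against 8.71% and 9.46% of all genes. Members called lower were 9 without MCD library 2, and those called higher 0 without MCD library 2 and 0 without control library 2. The summed level of the list was 4025 to 4837 CPM in the controls and 1478 to 5329 CPM on MCD, so the MCD animals spanned the control range. The 3 late-step enzymes Tm7sf2, Sc5d and Ebp fell, from 98.0, 91.0 and 104 CPM to 8.24, 45.2 and 21.8 CPM in the case of Tm7sf2 (log2 difference -1.95 ± 0.45 (SE), adjusted p = 0.00372), and by log2 differences of -1.30 ± 0.28 for Sc5d and -1.07 ± 0.18 for Ebp.

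Glucose metabolism had called members in both directions, and amino acid breakdown only lower ones. Of 15 genes of glucose production and storage 4 were called lower (2 without MCD library 1) and 3 higher (1 without MCD library 1, 0 without control library 1 and 1 without control library 3). Over all genes 8.71% were called lower and 9.46% higher. This list's median log2 difference was 0.0004, with 8 of 15 above 0. Pygl, liver glycogen phosphorylase, fell from 811, 864 and 904 CPM to 257, 335 and 312 CPM (log2 difference -1.51 ± 0.20 (SE), adjusted p = 2.56e-05). Fbp1 and Pcx, enzymes of gluconeogenesis, had log2 differences of -0.76 ± 0.15 and -0.65 ± 0.17, and Pcx lost its call without MCD library 1. Sik1, a cAMP-induced kinase, had 7.27, 12.6 and 10.3 CPM against 29.9, 12.6 and 21.9 CPM and lost its call without control library 1, control library 3 or MCD library 1. Of 24 genes of amino acid breakdown and the urea cycle 6 were called lower (3 without MCD library 1 and 3 without control library 2) and none higher by edgeR (1 at an unadjusted p under 0.05 and 0 by DESeq2). Otc, of the urea cycle, fell from 411, 414 and 363 CPM to 192, 239 and 222 CPM (log2 difference -0.86 ± 0.16 (SE), adjusted p = 0.000698). Uroc1, Fah and Aass, which degrade histidine, tyrosine and lysine, had log2 differences of -0.77 ± 0.17, -0.75 ± 0.19 and -0.89 ± 0.26, and Aass lost its call without control library 2 or MCD library 1.

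Growth hormone pulses set the male pattern of liver expression. Of 11 genes of the growth hormone axis 3 were called lower and 1 higher, against 8.71% and 9.46% of all genes. Igf1, the circulating growth factor made in response to growth hormone, fell from 533, 495 and 518 CPM to 199.6, 316 and 214 CPM (log2 difference -1.09 ± 0.22 (SE), adjusted p = 0.0012). Ghr, the receptor, fell from 618, 590.0 and 424 CPM to 144, 307 and 267 CPM (log2 difference -1.15 ± 0.29 (SE), adjusted p = 0.00704), and its call was lost without MCD library 1. Stat5b, its signal transducer, had a log2 difference of -0.78 ± 0.15, and the binding protein Igfbp2 rose by 0.85 ± 0.19. Of 10 male-biased genes 6 were called lower and none higher by edgeR (0 at an unadjusted p under 0.05 and 0 by DESeq2), with a median of -1.77. The lower count was 0 without MCD library 1, 3 without control library 1 and 3 without control library 2. Slco1a1, an organic anion transporter, was at 868, 869 and 146 CPM in the controls and 11.8, 256 and 8.99 CPM on MCD (log2 difference -3.26 ± 0.90 (SE), adjusted p = 0.0132). Cyp4a12a was at 4.20, 13.4 and 0.153 CPM on MCD, against the control values given above (log2 difference -3.63 ± 0.91 (SE), adjusted p = 0.00716). C6 and Nudt7 were the other 2 called members with the smallest p, at -1.94 ± 0.56 and -1.60 ± 0.45. In these 4 genes the female control library overlapped the MCD range, and each lost its call without MCD library 1, Slco1a1 also without control library 3 and C6 also without control libraries 1 and 2 and MCD library 2. Of 11 female-biased genes 1 was called higher, against 9.46% of all genes, with a median log2 difference of 2.08 and 10 of 11 above 0, and the count was 0 without MCD library 1, 2 without MCD library 3, 0 without control library 1, 0 without control library 2 and 4 without control library 3, and 4 by DESeq2. The called gene was Cyp2a4, at 2.36, 3.83 and 874 CPM in the controls and 504, 112 and 1596 CPM on MCD (log2 difference 4.43 ± 1.46 (SE), adjusted p = 0.0365), and that call was lost without control library 1, control library 2 or MCD library 1.

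Complement and coagulation factors had 17 of 25 genes called lower and none higher by edgeR (0 at an unadjusted p under 0.05 and 0 by DESeq2), with a median log2 difference of -0.65. The count was 9 without MCD library 1, 11 without control library 1 and 11 without control library 2. C8g, of the membrane attack complex, fell from 269.9, 281 and 261 CPM to 88.7, 139.7 and 101 CPM (log2 difference -1.30 ± 0.17 (SE), adjusted p = 2.14e-05). C4b and Hc (complement C5) had log2 differences of -1.15 ± 0.23 and -0.68 ± 0.14. Of 20 acute phase proteins 5 were called higher (3 without MCD library 1, 3 without control library 1 and 3 without control library 2) and 4 lower. Apcs, serum amyloid P, rose from 61.3, 57.0 and 109 CPM to 178, 348 and 326 CPM (log2 difference 1.94 ± 0.36 (SE), adjusted p = 0.000656). Fibrinogen chains Fgb and Fgg fell, by log2 differences of -0.81 ± 0.16 and -0.92 ± 0.17. Lcn2, lipocalin 2, was at 3.26, 2.02 and 8.43 CPM in the controls and 229, 19.6 and 33.1 CPM on MCD, with a log2 difference of 4.72 ± 1.29 that was 2.50 without MCD library 1, where it was no longer called (adjusted p = 0.179). It was also not called without control library 1 or 2.

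Immediate-early genes, transcribed within minutes of a stimulus, had 9 of 14 called higher (5 without MCD library 1, 5 without control library 1 and 4 without control library 3) and none lower by edgeR (0 at an unadjusted p under 0.05 and 0 by DESeq2). Jun and Fos, the AP-1 subunits, stood at 9.30, 13.5 and 8.28 CPM and 0.236, 1.22 and 0.546 CPM in the controls, and at 58.5, 36.1 and 47.5 CPM and 4.75, 2.57 and 3.83 CPM on MCD. Their log2 differences were 2.19 ± 0.50 and 2.47 ± 0.47, and those of Klf6 and Ier3, a zinc-finger factor and an early-response survival gene, were 1.76 ± 0.36 and 2.32 ± 0.37. Glucocorticoid-responsive genes had 5 of 10 called higher (2 without MCD library 1, 2 without control library 1 and 3 without control library 2). Fkbp5, the co-chaperone of the glucocorticoid receptor, rose from 22.8, 18.1 and 53.6 CPM to 64.6, 110.0 and 107 CPM (log2 difference 1.67 ± 0.41 (SE), adjusted p = 0.00655). Sgk1, a serum- and glucocorticoid-induced kinase, had 15.6, 19.6 and 22.1 CPM against 60.3, 23.9 and 47.2 CPM (log2 difference 1.21 ± 0.34 (SE), adjusted p = 0.0152), and its call was lost without control library 1, control library 3 or MCD library 1. Heat shock chaperones had 3 of 14 called higher (1 without MCD library 2 and 1 without control library 2, 5 by DESeq2 and 7 on library totals), Hspa1a (2.03 ± 0.50), Hspa1b (1.91 ± 0.51) and Dnajb1 (0.62 ± 0.22). The near-identical Hspa1a and Hspa1b share reads, and Dnajb1 lost its call without control library 1, control library 2, control library 3, MCD library 2 or MCD library 3, and Hspa1b without control library 2 or MCD library 2.

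Cell-cycle genes had 12 of 20 called higher and none lower by edgeR (0 at an unadjusted p under 0.05 and 0 by DESeq2), with a median log2 difference of 1.80. The higher count was 2 without MCD library 1, 4 without MCD library 3, 3 without control library 1, 1 without control library 2 and 7 without control library 3. Ccnd1, cyclin D1, was at 18.8, 18.9 and 149 CPM in the controls and 294, 205 and 349.6 CPM on MCD (log2 difference 2.68 ± 0.60 (SE), adjusted p = 0.00327), and the female control library was the highest of its group. Cdc20, an activator of the anaphase-promoting complex, was at 0.145, 0.356 and 0.413 CPM and 7.43, 2.26 and 10.1 CPM (log2 difference 4.41 ± 1.26 (SE), adjusted p = 0.0166), and its call was lost without control library 1 or control library 2. Plk1 and Aurka, mitotic kinases, had 3.51, 1.07 and 3.16 CPM and 2.11, 0.89 and 2.01 CPM on MCD. Plk1 lost its call without control library 2 or MCD library 1, and Aurka without control library 2, control library 3, MCD library 1 or MCD library 3.

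Markers of cells other than hepatocytes were measured in the same libraries. Lipid-associated macrophage markers had 3 of 5 tested called higher, with a summed level of 49.1 to 59.4 CPM in the controls and 69.7 to 179 CPM on MCD, and 2 were called without MCD library 1. Trem2, the lipid receptor that defines these cells, was at 0.671, 0.627 and 0.826 CPM in the controls and 16.0, 3.83 and 4.95 CPM on MCD (log2 difference 3.54 ± 0.80 (SE), adjusted p = 0.00337). Lgals3 and Itgax were at 77.0, 18.7 and 21.2 CPM and 24.1, 4.76 and 6.63 CPM on MCD, with log2 differences of 3.08 ± 0.70 and 3.34 ± 0.79, and Itgax lost its call without MCD library 1. Kupffer cell and macrophage markers had 2 of 10 called higher, Marco and Cd68 (0 without MCD library 1, 1 without control library 1 and 1 without control library 2, and 4 on library totals), with sums of 467 to 759 CPM in the controls and 619 to 1021 CPM on MCD. Monocyte and neutrophil markers had 3 of 6 called higher, Ccr2, Ly6c2 and Csf3r (0 without MCD library 1 and 1 without control library 2), with sums of 5.02 to 9.87 CPM in the controls and 13.3 to 43.6 CPM on MCD. MCD library 1 was the highest of the 6 libraries for Trem2, Lgals3, Itgax, Marco, Cd68, Ccr2, Ly6c2 and Csf3r, and the last 6 of these lost their calls without it. At the other times the median log2 difference of the lipid-associated macrophage list was 0.0003 at CT08 and 1.27 to 2.97 elsewhere, and without the control CT08 library that stands apart it was 1.70 at CT08.

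The remaining marker lists had 0 or 1 called member each in the fit described, and more under some other settings. For comparison, 9.46% of all genes tested were called higher and 8.71% lower, and lists this short cannot be told from those shares. Sinusoidal endothelial markers had 1 of 7 called higher, Lyve1, at 4.86, 6.77 and 6.07 CPM and 33.8, 13.9 and 16.9 CPM (log2 difference 1.86 ± 0.41 (SE), adjusted p = 0.00268), with sums of 341 to 368 CPM in the controls and 347 to 422 CPM on MCD. The count was 2 without MCD library 1, 2 by DESeq2 and 5 on library totals. Stellate cell and fibroblast markers had 1 of 8 called higher, the matrix protein Dcn (0.73 ± 0.20), which was not called without control library 3 or MCD library 1, with sums of 323 to 370.4 CPM in the controls and 392 to 849 CPM on MCD. The count was 0 without MCD library 1, 3 without MCD library 2 and 2 without MCD library 3, 3 by DESeq2 and 4 on library totals. None of 7 lymphocyte or 5 cholangiocyte markers was called by edgeR, with 0 at an unadjusted p under 0.05 and 0 by DESeq2. Of 5 erythroid markers the globin Hbb-bs was called lower (-1.12 ± 0.35), but not without control library 1, control library 3, MCD library 1, MCD library 2 or MCD library 3. The erythroid count was 3 without control library 2, 3 by DESeq2 and 0 on library totals. Hepatocyte markers had 1 of 8 called lower, Serpina1c, at 6609, 6695 and 4479 CPM and 1817, 3700.1 and 2527 CPM (log2 difference -1.11 ± 0.25 (SE), adjusted p = 0.00358), with sums of 85397 to 107559 CPM in the controls and 58965 to 108145 CPM on MCD. The lower count was 2 without MCD library 2 and 2 without control library 3, and 3 by DESeq2. No tested marker was at 0 in all 6 libraries. None of 4 adipocyte markers was found by symbol among the genes with deposited counts. Of 7 lipid-associated macrophage and 10 stellate cell and fibroblast markers, 5 and 8 were found. In whole tissue, fewer cells of a type and less RNA per cell cannot be told apart, and the part of cell numbers in the gene differences above was not tested.

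Nuclear-encoded respiratory chain subunits had 22 of 80 called lower and none higher by edgeR (1 at an unadjusted p under 0.05 and 0 by DESeq2), with a median of -0.27, but on library totals 7 were called higher and 6 lower. The lower count was 7 without MCD library 1, 34 without MCD library 2 and 13 without control library 3. Ndufa6 and Ndufa13, of complex I, fell from 126, 141 and 137 CPM to 70.8, 89.5 and 76.9 CPM and from 109.7, 120.4 and 110.5 CPM to 65.2, 84.2 and 69.0 CPM. Ndufa9 and Sdhb, of complexes I and II, had log2 differences of -0.54 ± 0.10 and -0.56 ± 0.12. Mitochondrially encoded genes had 4 of 37 called lower, a share near the 8.71% of all genes (2 without MCD library 1, 2 without MCD library 2, 1 without control library 1, 0 without control library 2 and 7 without control library 3), and 0 higher. Their median log2 difference was -0.65, with 1 of 37 above 0, and 9 were lower and 0 higher at an unadjusted p under 0.05. Among them mt-Co3 fell from 4535, 4601 and 3920.3 CPM to 2548, 2774 and 2529.9 CPM (log2 difference -0.73 ± 0.21 (SE), adjusted p = 0.0145), but lost its call without control library 2 or MCD library 1. Proteasome subunits had 9 of 38 called lower and 1 higher, but 1 lower and 6 higher on library totals. Members called lower were 4 without MCD library 1, 4 without MCD library 3, 4 without control library 2 and 4 without control library 3, and those called higher 2 without MCD library 3 and 2 without control library 3. Psmb7, of the catalytic core, fell by a log2 difference of -0.63 ± 0.12. Psmd8, of the regulatory particle, was the member called higher, by 0.73 ± 0.17. Psmc1 and Psmd2, of the same particle, were called lower, with log2 differences of -0.33 and -0.42. Cytosolic ribosomal proteins had 2 of 80 called in each direction, and the higher members were 0 to 2 and the lower members 0 to 2 with 1 CT04 library left out. On library totals 20 were called higher and 0 lower, so no direction is given for this list.

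**Figure D2:**
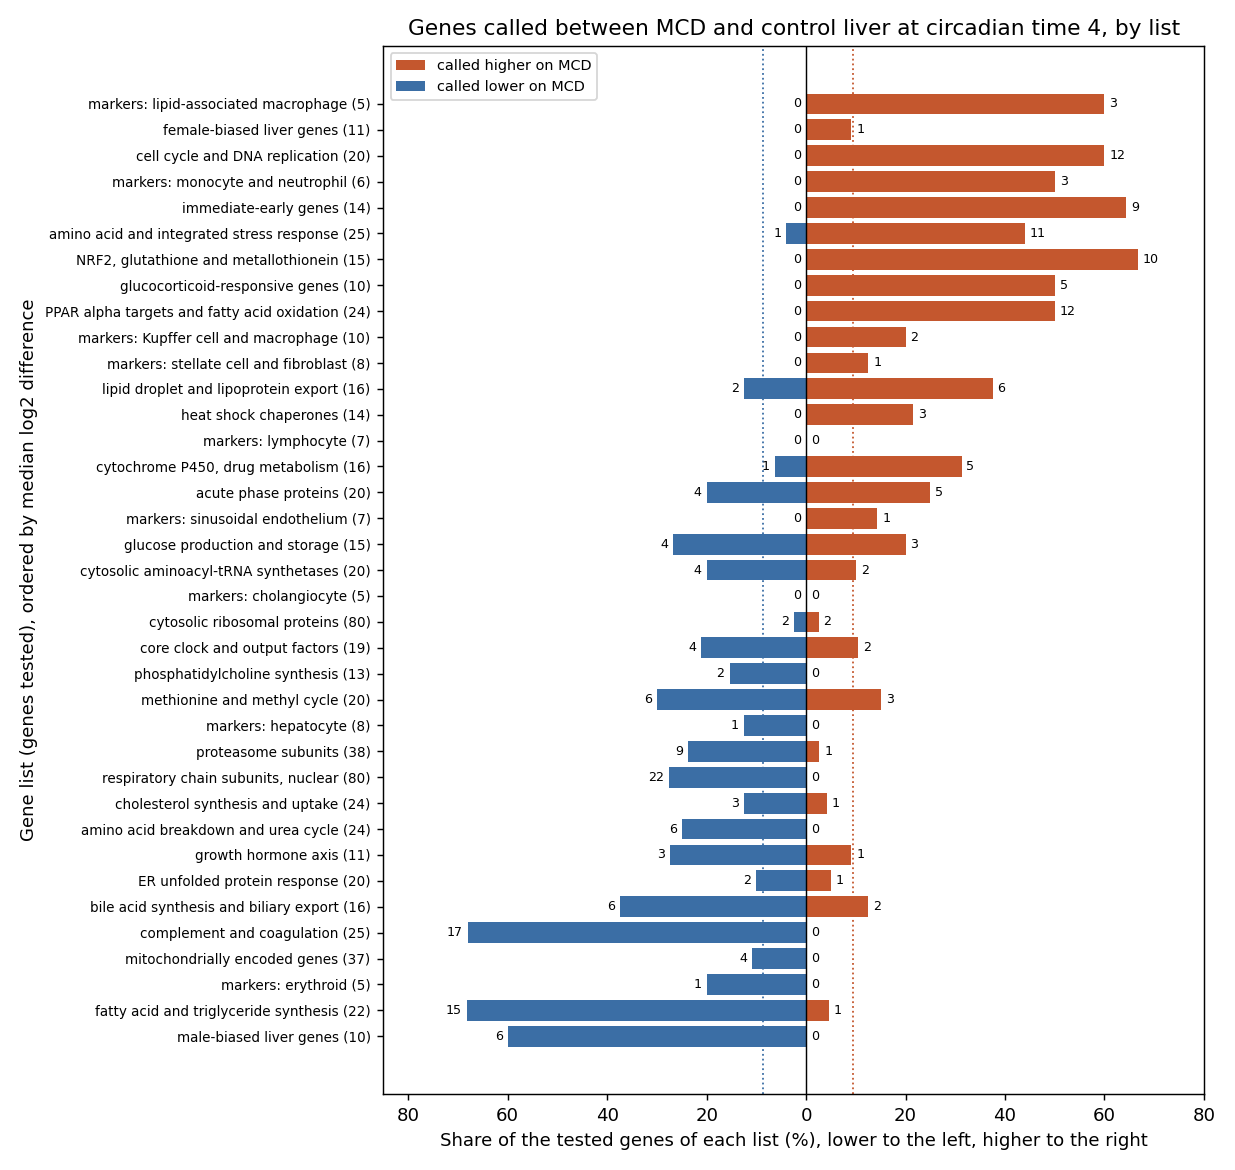
Share of the tested genes of each list that was called higher (right) or lower (left) on MCD at CT04, in percent, with the number of genes at each bar's end and the number tested in brackets. Dotted lines give the shares over all genes tested, 9.46% higher and 8.71% lower; complement and coagulation (17 of 25) and fatty acid synthesis (15 of 22) reach farthest to the left.

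The diet response at CT04 was then set against that at the other 5 times. Over 13840 genes with a mean of at least 1 CPM, the SD of the log2 diet difference was 0.85 at CT04, the highest of the 6 times, and 0.53 at CT08, with 0.66 to 0.76 at the rest. The median absolute difference at CT04 was 0.27, against 0.16 at CT08 and 0.25 to 0.27 elsewhere. Without the control CT08 library that stands apart, the CT08 values were 0.67 for the SD and 0.22 for the median absolute difference. In a single model, 27 genes (0.133% of those tested) had a diet difference at CT04 that departed from the mean of the other 5 times at an adjusted p under 0.05, 14 upward (0.0691%) and 13 downward (0.0642%), and 1935 had an unadjusted p under 0.05. All 27 were also called for diet at CT04. Liver of control mice at CT04 differed from the mean of the other control times in 585 genes (2.89%), of which 290 (1.43% of those tested) were higher and 295 (1.46%) lower. Liver of MCD mice differed in 901 (4.45%), of which 397 (1.96%) were higher and 504 (2.49%) lower.

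Of the 27, 21 were also called between CT04 and the other times in control liver and 7 in MCD liver. Of the 14 upward genes, 12 were called lower at CT04 than at the other times in controls, and 12 had their lowest control mean there. In MCD liver 3 of the 14 were called higher than at the other times. Of the 13 downward genes, 9 were called higher at CT04 in controls and 10 had their highest control mean there, while 4 were called lower on MCD. The control and MCD contrasts share their libraries with the diet contrast, so they describe it and are no further evidence.

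Alas1, the rate-limiting enzyme of haem synthesis (ENSMUSG00000032786.17), had the largest departure of the 18 named genes called for one. At CT04 it stood at 27.0, 30.4 and 90.4 CPM in the controls and 266, 580.3 and 222 CPM on MCD (log2 difference 2.93 ± 0.54 (SE), adjusted p = 0.000645). The diet differences at CT00, CT08, CT12, CT16 and CT20 were -0.75, 1.53, -0.20, -0.81 and -0.026, and the departure of CT04 was 2.98 ± 0.57 (adjusted p = 0.0276). Control Alas1 peaked at CT12 with 1022 ± 377 CPM (SD, n = 3), and MCD Alas1 had 1053 ± 159.6 CPM at CT08 and 885 ± 243 CPM at CT12. The log2 difference of control liver at CT04 from the mean of the other control times was -2.65 ± 0.47 (SE), adjusted p = 0.00267.

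Tsku, a secreted liver protein (ENSMUSG00000049580.13), stood at 10.4, 7.82 and 9.24 CPM in the controls and 150.3, 221 and 147 CPM on MCD at CT04 (log2 difference 4.24 ± 0.51 (SE), adjusted p = 1.19e-05). It was higher on MCD at all 6 times, with differences of 2.07, 1.73, 0.97, 1.25 and 1.39 at the others, and the departure of CT04 was 2.75 ± 0.51 (adjusted p = 0.0265). Wee1, the kinase that holds CDK1 inactive and a clock output gene in liver, stood at 2.96, 2.29 and 4.34 CPM and 9.48, 9.47 and 9.73 CPM, with a departure of 1.25 ± 0.25 (adjusted p = 0.0328). Its control means were 3.19 ± 1.05 CPM at CT04 and 20.4 ± 4.07 CPM at CT08 (SD, n = 3), and its MCD means 9.56 ± 0.149 and 29.5 ± 4.03 CPM.

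Fam102a stood at 15.6, 14.6 and 22.7 CPM in the controls and 41.3, 53.2 and 60.0 CPM on MCD, with differences of -0.079, 0.94, 0.28, -0.61 and -0.34 at the other times. Its departure of 1.52 ± 0.19 had the smallest adjusted p of the test, 0.000269, and it was the only named gene still called after each of the 6 CT04 libraries was left out in turn. Efhd2, a calcium-binding adaptor, stood at 25.0, 28.1 and 33.2 CPM and 89.9, 92.8 and 70.4 CPM (departure 1.04 ± 0.19, adjusted p = 0.0265). Ivns1abp, a kelch-repeat protein, and Baiap2l1, a membrane-actin adaptor, departed by 0.86 ± 0.14 and 1.20 ± 0.23, Slc35g1, a membrane transporter, by 0.96 ± 0.19, and Tor1b, a torsin ATPase, by 0.80 ± 0.17 (adjusted p = 0.0157, 0.0265, 0.0276 and 0.0458). Baiap2l1 overlaps Bri3, and Shfl overlaps Angptl6, on the other strand.

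The downward genes were of moderate level and change. Asap2, a GTPase-activating protein for Arf, stood at 37.9, 40.9 and 21.4 CPM in the controls and 12.3, 8.69 and 11.0 CPM on MCD, with a departure of -1.43 ± 0.29 (adjusted p = 0.0422). Mcu, the pore of the mitochondrial calcium uniporter, stood at 31.4, 26.5 and 32.2 CPM and 14.3, 14.5 and 17.7 CPM, with a departure of -1.05 ± 0.20 (adjusted p = 0.0265) and differences of -0.16, -0.23, 0.24, 0.36 and 0.23 at the other times. Cars, the cysteinyl-tRNA synthetase, stood at 39.6, 46.1 and 40.9 CPM and 29.0, 29.2 and 32.3 CPM. Its diet differences were above 0 at 4 of the other 5 times (0.34, -0.34, 0.65, 0.69 and 0.57 from CT00 to CT20 without CT04) and below 0 at CT04, a departure of -0.87 ± 0.18 (adjusted p = 0.0477). Gramd1c, a sterol transfer protein, had differences of 0.68, -0.087, -0.062, 0.51 and 0.61 at those times, with -0.35 ± 0.12 at CT04 and a departure of -0.68 ± 0.13 (adjusted p = 0.0265).

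Of the other named downward genes, Shfl, an inhibitor of ribosomal frameshifting, departed by -0.94 ± 0.19 and Abca2, a lipid transporter, by -0.88 ± 0.17. Atg101 and Wdr24, components of autophagy initiation and of the amino acid sensing complex GATOR2, departed by -0.80 ± 0.16 and -0.57 ± 0.11. Cnnm3, of a magnesium transport family, departed by -0.75 ± 0.14. Their adjusted p-values were 0.0422, 0.0341, 0.0415, 0.0265 and 0.0265 in the order named. Which genes pass this test depends on single libraries: 1, 1 and 53 were called without control libraries 1, 2 and 3, of which 1, 1 and 24 were among the 27. Without MCD libraries 1, 2 and 3 the counts were 7, 1 and 2, of which 5, 1 and 2 were among the 27. DESeq2 called 229, all 27 included, leaving CT08 out of the mean gave 111, all 27 included, and leaving out the control CT08 library that stands apart gave 36, all 27 included.

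**Figure D3:**
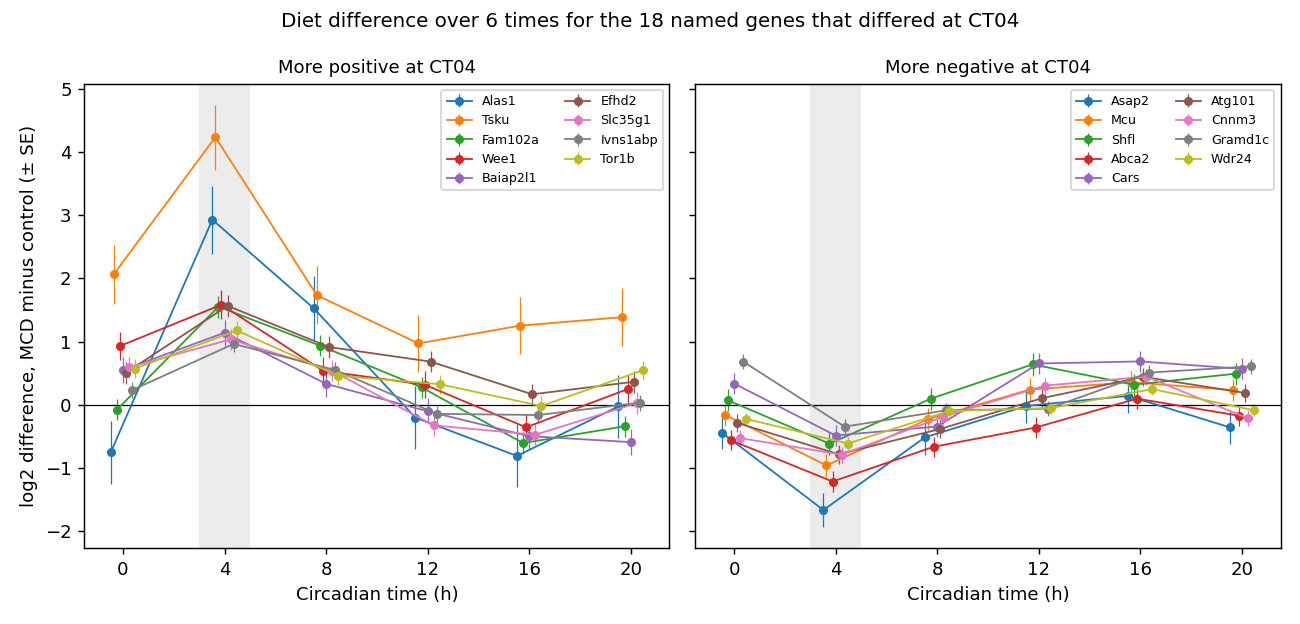
Log2 diet difference (MCD minus control, ± SE of the fit) against circadian time in hours for the 18 named genes whose difference at CT04 departed from the other times. On the left Tsku reaches 4.24 and Alas1 2.93 at CT04 (shaded); on the right all 9 genes are lowest at CT04, Asap2 at -1.67.

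Core clock genes, by which time of day is read in tissue, were given the same comparison. Of 19 tested, 2 were called higher for diet at CT04 and 4 lower, against 9.46% and 8.71% of all genes. The higher count was 5 without control library 3, and the lower count 1 without MCD library 2, 2 without control library 1 and 1 without control library 2. On library totals 4 were called higher and 3 lower. Per1, a repressor of the clock, stood at 2.36, 2.17 and 13.4 CPM in the controls and 36.8, 50.8 and 15.3 CPM on MCD (log2 difference 2.75 ± 0.61 (SE), adjusted p = 0.00327). Ciart, a CRY-interacting repressor, stood at 0.363, 0.339 and 1.20 CPM and 4.58, 8.16 and 2.31 CPM (log2 difference 3.01 ± 0.55 (SE), adjusted p = 0.000609). Arntl, which encodes BMAL1, stood at 23.9, 27.8 and 7.39 CPM and 8.43, 5.57 and 7.41 CPM (log2 difference -1.48 ± 0.41 (SE), adjusted p = 0.013), and its call was lost without control library 1, control library 2 or MCD library 2. Cry1, the late repressor, stood at 14.9, 12.1 and 7.25 CPM and 3.04, 5.63 and 4.64 CPM (log2 difference -1.38 ± 0.31 (SE), adjusted p = 0.00316). Npas2 and Nfil3, the other 2 members called lower, were chosen after their values were seen and had log2 differences of -2.57 ± 0.72 and -0.74 ± 0.26. In Per1, Ciart and Cry1 the female control library was the control nearest to the MCD libraries, and in Arntl it lay within their range.

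The time courses show where CT04 lies for these genes. Arntl fell from 34.2 ± 0.233 CPM at CT00 to 19.7 ± 10.9 at CT04 and 2.05 ± 0.952 at CT08 in controls, and from 33.4 ± 2.67 to 7.14 ± 1.45 and 0.965 ± 0.117 CPM on MCD (SD, n = 3). Per1 was at 5.00 ± 2.90, 5.97 ± 6.41, 30.2 ± 5.36 and 73.4 ± 4.95 CPM from CT00 to CT12 in controls, and at 5.92 ± 1.82, 34.3 ± 17.9, 74.6 ± 16.4 and 74.1 ± 12.1 CPM on MCD. Ciart had its highest control mean at CT12, 23.1 ± 11.1 CPM, and its highest MCD mean at CT08, 28.0 ± 10.0 CPM. None of the 19 clock genes was called for a departure of CT04 from the other times by edgeR, while 9 had an unadjusted p under 0.05 and DESeq2 called 5. The nearest were Ciart (2.65 ± 0.59, adjusted p = 0.0658), Cry1 (-1.46 ± 0.34, adjusted p = 0.0748), Per1 (2.50 ± 0.65, adjusted p = 0.12) and Arntl (-1.54 ± 0.44, adjusted p = 0.169). Nr1d1 and Dbp, which encode REV-ERB alpha and a D-box activator, had CT04 log2 differences of -0.076 ± 0.54 and 0.29 ± 0.49 and were not called. Both were chosen after their values were seen.

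Promoter windows were matched for 16 of the 19 clock genes, and 5 (31.2%) held the canonical E-box CACGTG, against 8.09% of all genes with a window. The 250 bases upstream of the start of the 2 genes called higher are printed, with the E-boxes in capitals. Ciart holds 3 copies within the 250 bases before its start and Per1, in 1 of its 2 windows, 1 copy. Among the 20 genes named for the departure of CT04, 14 had a window and 2 of these held the E-box. The D-box core TTANGTAA was in 1 of the 16 clock windows and in 2.72% of all genes with a window. Both are shown from RefSeq GRCm38.p6, Ciart at chr3:95882229-95882478, minus strand, and Per1 at chr11:69098699-69098948, plus strand.
Ciart: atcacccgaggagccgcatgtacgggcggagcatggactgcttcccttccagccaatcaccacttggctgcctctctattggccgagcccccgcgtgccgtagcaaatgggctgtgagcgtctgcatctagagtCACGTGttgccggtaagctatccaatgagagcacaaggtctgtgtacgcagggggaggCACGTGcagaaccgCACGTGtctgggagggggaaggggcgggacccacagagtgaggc
Per1: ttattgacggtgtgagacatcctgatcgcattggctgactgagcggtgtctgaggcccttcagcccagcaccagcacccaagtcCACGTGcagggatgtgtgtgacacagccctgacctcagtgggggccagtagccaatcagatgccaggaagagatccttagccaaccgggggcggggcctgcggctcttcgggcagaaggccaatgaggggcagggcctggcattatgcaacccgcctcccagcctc

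**Figure D4:**
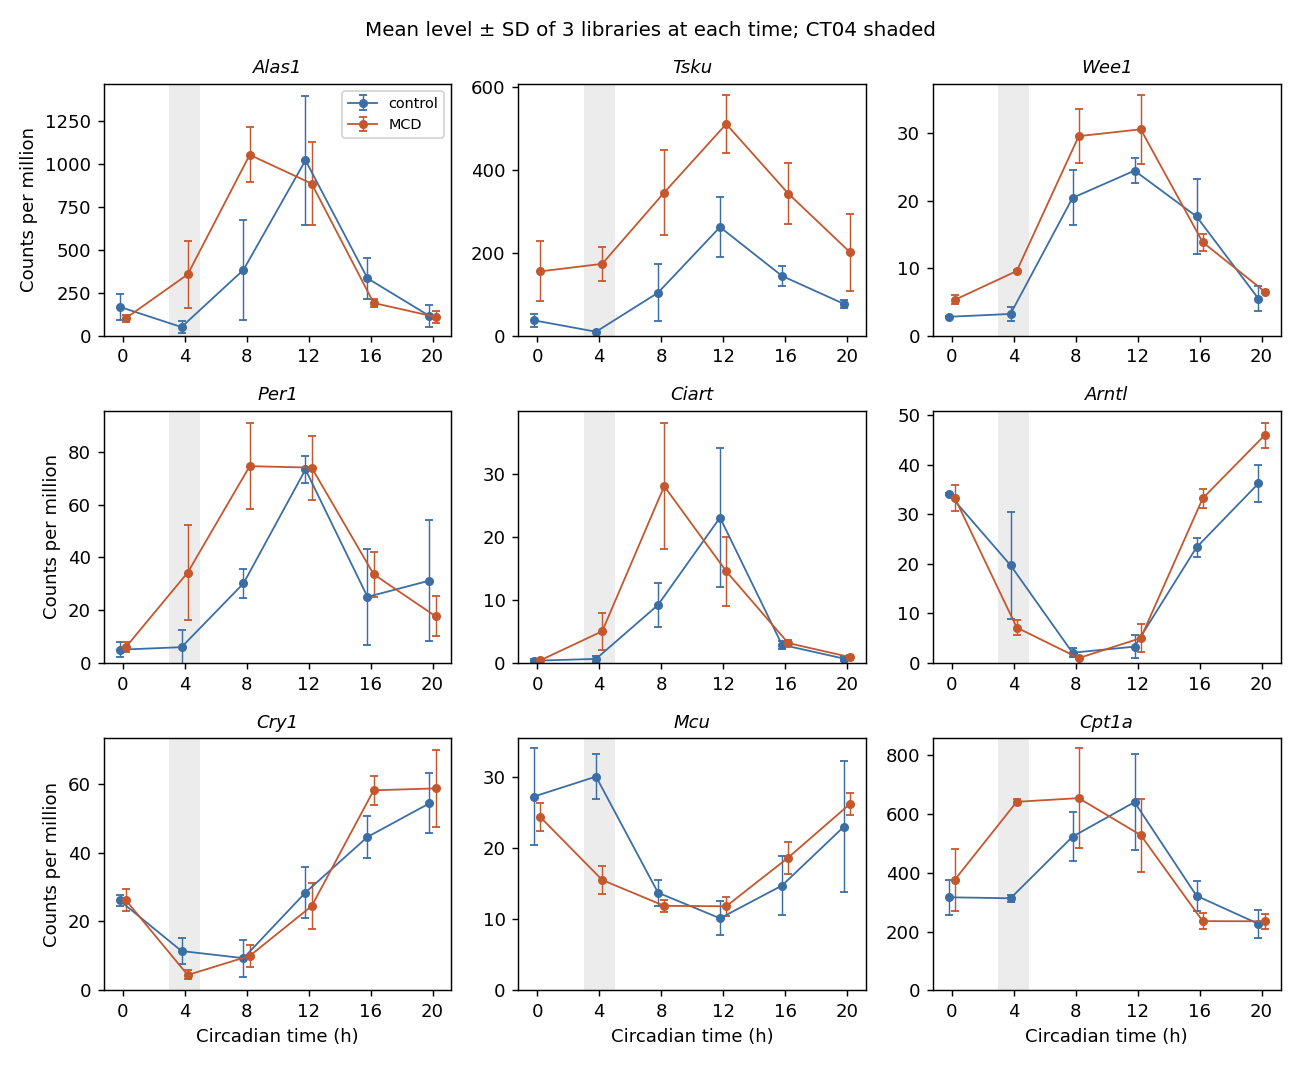
Mean level in CPM ± SD of 3 libraries against circadian time in hours, by diet, for 9 genes; CT04 is shaded and error bars below 0 are cut off. At CT04 MCD is above control for Alas1, Tsku, Wee1, Per1, Ciart and Cpt1a and below it for Arntl, Cry1 and Mcu.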

How the data were processed

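Polyadenylated RNA of 36 liver libraries (2 diets, 6 circadian times, 3 mice each) was counted per gene. The authors deposited whole-number read counts for 22823 genes with no normalization. The submitters' processing notes name Trimmomatic, HISAT2, StringTie, DESeq2 and the build GRCm39, with no version or setting. Library totals of 52600280 to 86740552 counts set the counting precision.

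Genes were filtered with edgeR 4.0.16 (filterByExpr, minimum count 10), leaving 20249. Libraries were scaled by TMM and fitted by its quasi-likelihood test (robust) with 12 diet-by-time groups and a sex term over all 36 libraries. The contrasts were diet at CT04, that difference minus the mean of the other 5 times, and CT04 against the other times within each diet. Benjamini-Hochberg adjustment ran over all tested genes, and a call is an adjusted p under 0.05. Diet differences at the other 5 times are values without a test. The fit was checked on simulated data.

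Named genes were the 12 largest called differences in each direction at a mean of at least 1 CPM with no overlap of libraries, the 6 largest differences in mean CPM, up to 10 per direction departing at CT04, and per list up to 4 called members of smallest p. Genes with only a predicted name are given by number. The members and lists were chosen with earlier results of these data known. Where all libraries of a group were at 0, folds use a floor of 3 counts over the group. Alternatives were DESeq2 1.42.0, limma 3.58.1 (voom), other scalings, filters and terms, and leaving out libraries. Replicate numbers did not pair the diets, so no block was used. R 4.3.3 and Python 3.11.15 were used. Promoter windows are from RefSeq, build GRCm38.p6, and gene overlaps from a GRCm38 annotation matched by gene identifier.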

Additional observations from a re-analysis of the deposited data

Results flagged for a closer look

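The diet difference at CT04 departed from the mean of the other 5 times, by edgeR's quasi-likelihood test of that difference itself with Benjamini-Hochberg adjustment, in 18 genes with a full name. The upward departures on the log2 scale were 2.98 for Alas1, 2.75 for Tsku, 1.52 for Fam102a, 1.25 for Wee1, 1.20 for Baiap2l1, 1.04 for Efhd2, 0.96 for Slc35g1, 0.86 for Ivns1abp and 0.80 for Tor1b. The downward departures were -1.43 for Asap2, -1.05 for Mcu, -0.94 for Shfl, -0.88 for Abca2, -0.87 for Cars, -0.80 for Atg101, -0.75 for Cnnm3, -0.68 for Gramd1c and -0.57 for Wdr24. Fam102a was called in 6 of the 6 fits that each left out 1 CT04 library, and each of the other 17 in 0 to 2 of them. Control library 3 and MCD library 2, whose clock gene levels stand apart from those of their groups, both enter these values, and their part in them was not tested apart from leaving each out.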

How the results depend on the processing

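The count of genes called for diet at CT04 (3679) was 1272 with only the 6 CT04 libraries, and 532 with a replicate block added to these. Leaving out 1 library, or the libraries of 1 replicate number, gave 330 to 3407. The count of genes departing at CT04 (27) was 15 on library totals, 229 with DESeq2, 14 without the sex term, 55 with a replicate block and 111 against the mean of 4 times without CT08, and 0 to 53 with libraries left out. The control contrast (585) gave 1099 with DESeq2, 1008 with a replicate block, 942 without CT08 and 7 to 622 with libraries left out. The MCD contrast (901) gave 542 on library totals, 1637 with DESeq2, 1625 without CT08 and 4 to 842. The same genes were not all called under each setting.

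The replicate numbers carry sex but no stated pairing. At CT04 the deviations of same-numbered libraries correlated at 0.0652, 0.254 and 0.50, and after removal of sex at -0.0111, -0.10 and -0.123. Of the 6 libraries 3 correlated best with their own number. The block over all times gave 4018 calls for diet at CT04.

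On library totals Rpl11 changed sign to 0.021 log2, and list medians changed sign to 0.16 (methionine cycle), 0.23 (phosphatidylcholine synthesis), 0.30 (tRNA synthetases), 0.26 (ribosomal proteins), 0.018 (respiratory chain), 0.13 (proteasome), 0.28 (cholangiocyte markers), 0.20 (clock genes) and 0.13 (hepatocyte markers). With libraries left out the methionine median ranged from -0.249 to 0.059 and changed sign without replicate 1. That of phosphatidylcholine synthesis ranged from -0.168 to 0.036 and changed sign without control library 2, MCD library 1 or replicate 2. That of acute phase proteins ranged from -0.062 to 0.326 and changed sign without control library 1, control library 2 or replicate 2. Medians near 0 also crossed it for tRNA synthetases (-0.038 to 0.018), ribosomal proteins (-0.104 to 0.0071) and cholangiocyte markers (-0.444 to 0.099). Causes were not tested where a setting keeps all libraries. Settings that leave out libraries test fewer samples.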
